A study of Mus musculus with 2 samples.

Results

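The Ly6 family members Ly6a, Ly6c1, Ly6c2, Ly6d, Ly6e, Ly6g and Ly6i, and the unrelated gene Plac8, were examined in single-cell RNA profiles of live CD45+ cells sorted from B16 tumours, a mouse melanoma line grown in syngeneic C57BL/6 hosts. The members were the rows of the deposited gene table that carry these symbols, and all 8 were found among 31053 genes. They were selected on measured values of the same cells, because Ly6c2 and Plac8 were higher in macrophages of the library labelled KO, so their levels in macrophages are a description and support no further statement. WT mice carried Mettl3 fl/fl and Lyz2+/+, without Cre. KO mice carried Mettl3 fl/fl and Lyz2cre/+, in which Cre is expressed from the lysozyme 2 locus of macrophages, monocytes and granulocytes. Both genotypes were aged 8 weeks, carried the floxed Mettl3 allele and bore B16 tumours. Mettl3 is the catalytic subunit of the complex that methylates adenosine in messenger RNA. Each genotype is represented by a single library of pooled mice. Variation between animals is therefore unknown, and the libraries were compared without any test. All intervals are 95% intervals for counting error, exact Poisson for levels, exact conditional for ratios and exact Clopper-Pearson for shares. UMIs of 1 cell are not independent of each other, so these intervals are too narrow even as a statement on cells.

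Proteins of the Ly6 family are small, share a cysteine-rich fold and mostly sit on the outer leaflet of the plasma membrane through a lipid anchor. Several serve as identity markers: the Ly6C antigen, encoded by Ly6c1 and Ly6c2, marks blood monocytes that enter inflamed tissue, Ly6G marks neutrophils, and an antibody to Gr1 binds both antigens. Ly6a encodes the stem cell antigen Sca-1, Ly6d is used to mark B-lineage cells, and Ly6e is a broadly expressed member that interferon can induce, as it can Ly6a. Plac8 encodes a small cysteine-rich intracellular protein of monocytes, plasmacytoid dendritic cells and lymphocytes, and it is not a Ly6 gene.

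The library labelled WT held 5895 barcodes and 45963969 UMIs, against 8446 barcodes and 54052317 UMIs in the larger library labelled KO. After filtering, 5405 and 7625 cells remained, with medians of 4148 and 3567 UMIs per cell. The libraries shared 13 barcode sequences. Mettl3 itself was not lower in the library labelled KO, at 9.99 UMIs per 1000000 (CPM; interval 8.64 to 11.5) in macrophage-like cells labelled WT against 10.6 CPM (9.19 to 12.2) in those labelled KO. The 3' counts do not show whether a transcript lacks an internal exon. Lyz2, which carries the inserted Cre in 1 allele, was at 5850 CPM against 2671 CPM in the same cells. It was also lower labelled KO in monocyte-like cells (10688 and 4357 CPM) and granulocyte-like cells (1553 and 754 CPM), KO being the genotype with the Cre allele. Lyz2 in melanoma-like cells was at 90.4 and 36.2 CPM. The libraries are named by their labels, as labelled WT and labelled KO. CPM values are set side by side within a gene, never between genes.

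Cells were given a class from the scaled level of 16 marker lists that hold no member. Macrophage-like cells (8 markers, among them C1qa, C1qb, C1qc, Ms4a7, Apoe, Adgre1 and Trem2) numbered 1648 labelled WT and 2094 labelled KO, or 30.5% and 27.5% of each library. Monocyte-like cells (Ccr2, Vcan, F13a1, Chil3, Fn1, Emilin2 and Sirpb1c) numbered 863 and 1964, or 16.0% and 25.8%. There were 13 classes with at least 50 cells in each library, and 13.8% and 16.4% of cells met no class. C1qa, C1qc, C1qb and Ms4a7 were among the 10 leading genes of macrophage-like cells, and Chil3, Vcan, Fn1 and Ccr2 among those of monocyte-like cells, beside Plac8. Apart from Plac8 these are markers of the gates, so their place was set by the gates.

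The 7 Ly6 genes lie within 397 kb of chromosome 15 (mm10), from Ly6d at chr15:74762056-74763620 to Ly6g at chr15:75155240-75159126, with Ly6e, Ly6i, Ly6a, Ly6c1 and Ly6c2 in this order between them. Ly6c2 occupies chr15:75108158-75111970 on the minus strand and Ly6c1 chr15:75044018-75048830 on the same strand. Plac8 lies apart, at chr5:100553725-100572245 on the minus strand. No annotated gene overlaps any of the 8. Ly6c1 and Ly6c2 are near-identical copies, with 384 of 393 coding bases the same (97.7%), and Ly6a and Ly6i share 86.3%. The first 120 coding bases of both Ly6c genes are shown because no other stretch of this length holds more of the 9 differences. The copies are more alike over the rest of the coding sequence. The 3' reads come from the other end of the transcript. The capitals mark the 6 bases that differ.
Ly6c1: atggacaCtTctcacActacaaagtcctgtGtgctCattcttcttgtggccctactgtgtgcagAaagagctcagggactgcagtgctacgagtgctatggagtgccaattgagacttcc
Ly6c2: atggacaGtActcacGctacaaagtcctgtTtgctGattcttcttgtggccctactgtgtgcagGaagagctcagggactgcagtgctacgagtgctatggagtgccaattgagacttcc

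The deposited 3' counts gave the copies different patterns. Of the 90-base stretches in the last 500 bases of the Ly6c2 transcript, 8.52% occur exactly in Ly6c1, and none of those of the other 6 members occur in another gene's transcript. Fibroblast-like cells labelled WT held 155 UMIs of Ly6c1 and 0 of Ly6c2. Plasmacytoid dendritic cell (pDC)-like cells of the same library held 500 UMIs of Ly6c2 and 0 of Ly6c1. A UMI of Ly6c1 was rare outside the fibroblast-like cells, which held 91.2% and 83.1% of its UMIs in 14 cells labelled WT and 18 labelled KO. The split of single reads between these copies remains uncertain.

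The 250 bases before the start site of Ly6c2 and Plac8 are shown because these genes were higher together, and in cells with more UMIs of interferon-stimulated genes. RefSeq windows on GRCm38.p6 were at hand for 4 of the 8 members, Ly6c1, Ly6c2, Ly6g and Plac8, with alternative starts giving 8 windows in all. The first listed window of Ly6c2 is chr15:75111972-75112221 and that of Plac8 is chr5:100572206-100572455, both read on the minus strand. Capitals mark the letters GAGGAA on either strand, the core bound by the myeloid factor PU.1.
Ly6c2: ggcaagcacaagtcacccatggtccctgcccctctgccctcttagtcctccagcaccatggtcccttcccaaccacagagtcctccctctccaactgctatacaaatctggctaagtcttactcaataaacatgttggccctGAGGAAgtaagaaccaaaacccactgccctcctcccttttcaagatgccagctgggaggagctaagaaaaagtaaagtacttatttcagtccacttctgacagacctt
Plac8: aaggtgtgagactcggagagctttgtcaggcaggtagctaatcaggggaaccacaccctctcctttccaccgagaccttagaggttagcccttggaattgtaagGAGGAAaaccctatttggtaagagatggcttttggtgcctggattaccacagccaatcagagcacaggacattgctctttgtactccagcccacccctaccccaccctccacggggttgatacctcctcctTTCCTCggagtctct

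In these windows the core began 108 bases before the start site of Ly6c2 and 146 and 15 bases before that of Plac8. In the other window of Ly6c2 it began 142 and 8 bases before the start, and the other window of Plac8 held no match. The core is common, being present in 23.3% of 32851 promoter windows of the same length. The interferon-stimulated response element core, found in 2.98% of windows, occurred in 0 of the 8 windows. No capitals overlap, and a match is a run of letters, not a bound site.

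In macrophage-like cells, the monocyte marker Ly6c2 and Plac8 stood higher in the library labelled KO by the widest margins of the members with at least 50 CPM. Ly6c2 was at 78.6 CPM (74.7 to 82.7; 1535 UMIs) labelled WT and at 187 CPM (181 to 193; 3433 UMIs) labelled KO, giving a log2 ratio of 1.25 (1.16 to 1.34). Plac8 was at 299 CPM (291 to 307) and 628 CPM (617 to 640), giving a log2 ratio of 1.07 (1.03 to 1.12). No single cell carried the difference, since the highest cell held 50 and 46 UMIs of Ly6c2 and 110 and 86 UMIs of Plac8.

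Sca-1 (Ly6a) was at 413 CPM (404 to 422) and 633 CPM (621 to 644), giving a log2 ratio of 0.61 (0.57 to 0.66). The interferon-inducible Ly6e was nearer to parity, at 939 CPM (925 to 953) and 1150 CPM (1135 to 1166), giving a log2 ratio of 0.29 (0.26 to 0.32). Ly6i, the neighbour of Ly6a, was sparse at 8.04 CPM (157 UMIs) and 22.2 CPM (408 UMIs), and its log2 ratio of 1.47 (1.20 to 1.74) was the highest of the 8. Ly6c1 was barely present, at 7 and 12 UMIs. Ly6g had 11 UMIs in 6 cells labelled WT and 0 labelled KO, where 0 UMIs allow up to 0.164 CPM. Ly6d had 91 UMIs in 17 cells labelled WT, 25 of them in 1 cell, and 47 UMIs in 10 cells labelled KO, 28 of them in 1 cell. So Ly6c2, Plac8, Ly6a, Ly6e and Ly6i all stood higher in macrophage-like cells labelled KO. Ly6d had a log2 ratio of -0.86 (-1.40 to -0.34) that rests on few cells. It was -1.71 without the top cell of each library and -0.41 in cells grouped by clustering, so it is not read as a difference. Ly6c1 and Ly6g were too sparse to order.

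Against all genes with at least 50 CPM in either library, 3 of the 4 members that reached this level were at least 1.5-fold higher (Ly6c2, Plac8 and Ly6a) and 0 were 1.5-fold lower. Among all 2815 such genes, 1.49% were 1.5-fold higher and 0.355% lower, with a median log2 ratio of 0.009 against 0.841 for the 4 members. Ly6c2 ranked 2nd, Plac8 7th, Ly6a 40th and Ly6e 198th of the 2815 genes from the highest ratio. Since the members were picked for this difference, nothing is read from that count. Of 36 other genes of the Ly6/uPAR family that were listed, only Plaur, the urokinase receptor, reached 50 CPM in macrophage-like cells, with a log2 ratio of 0.59. The listed genes Ly6m, Ly6g2, Lypd9, Lypd10 and Lypd11 were not in the deposited gene table and so were not measured.

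Monocyte-like cells had the same members higher by smaller ratios. Ly6c2 was at 546 CPM (524 to 569) labelled WT and 745 CPM (726 to 764) labelled KO, giving a log2 ratio of 0.45 (0.38 to 0.52). Plac8 was at 2956 CPM (2905 to 3007) and 3923 CPM (3879 to 3967), giving a log2 ratio of 0.41 (0.38 to 0.44). For Ly6a the levels were 208 CPM and 300 CPM, giving a log2 ratio of 0.53 (0.42 to 0.64), and for Ly6e they were 1370 CPM and 1590 CPM, giving a log2 ratio of 0.21 (0.17 to 0.26). These 4 genes thus stood higher labelled KO in both classes. Ly6i, at 25.5 and 57.8 CPM, had a log2 ratio of 1.18 (0.88 to 1.49) and was the only member past 1.5-fold among the 5 that reached 50 CPM. Over the 2943 genes at that level in monocyte-like cells, 3.23% were 1.5-fold higher and 0.408% lower. Ly6d had 34 UMIs in 8 monocyte-like cells labelled WT, 20 of them in 1 cell, against 2 UMIs labelled KO.

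**Figure D1:**
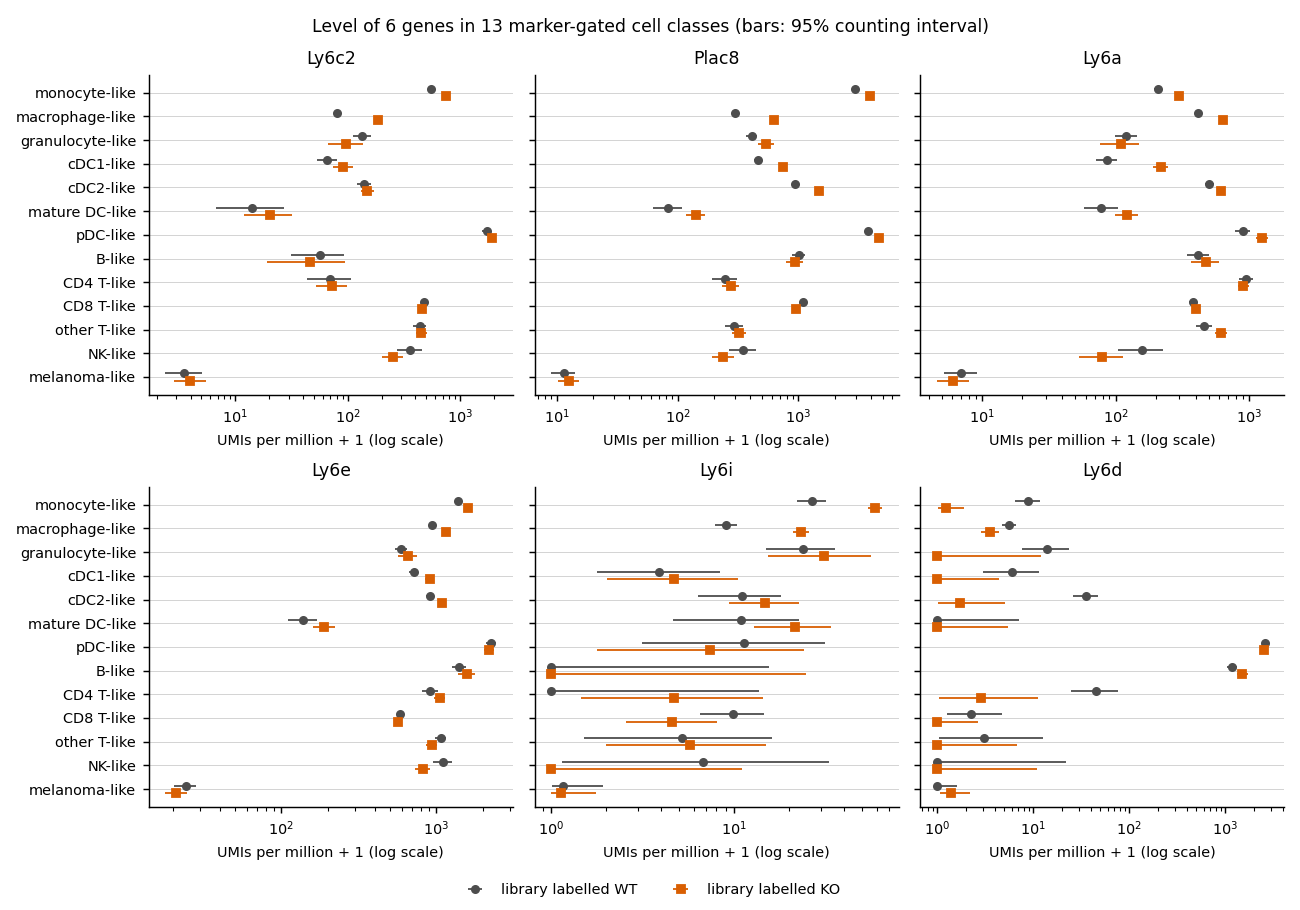
Level of 6 members in 13 marker-gated classes, as UMIs per 1000000 plus 1 on a log axis, for the library labelled WT (grey circles) and the library labelled KO (orange squares), with 95% counting intervals. Ly6c2 and Plac8 are highest in pDC-like and monocyte-like cells, and their macrophage-like points lie apart, at 78.6 against 187 CPM and 299 against 628 CPM.

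Across the 13 classes the order of levels was much the same in both libraries. Ly6c2 was highest in pDC-like cells, at 1722 CPM (1575 to 1880) labelled WT and 1932 CPM (1781 to 2093) labelled KO, followed by monocyte-like cells. CD8 T-like cells (474 and 459 CPM) and the other T-like cells with no or both coreceptors (438 and 452 CPM) came next, and their intervals overlapped. Macrophage-like cells stood 8th of 13 classes in the library labelled WT, where their interval overlapped those of CD4 T-like (68.9 CPM) and cDC1-like cells (65.1 CPM), and 6th in the library labelled KO, above cDC2-like cells (149 CPM). Ly6c2 was lowest in melanoma-like cells, with 2.48 and 2.96 CPM. These were the deepest cells, so their CPM is not the background level of shallower classes, and the share of cells with a UMI serves that comparison. A Ly6c2 UMI was found in 8.51% and 8.33% of melanoma-like cells and in 8.78% and 7.69% of granulocyte-like cells. By this share granulocyte-like cells could not be told from background, and their CPM is not read further. The share does not describe single cells with many UMIs, which held up to 25 and 4 in granulocyte-like cells and up to 3 and 3 in melanoma-like cells.

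Plac8 followed a like order, with pDC-like cells at 3772 CPM (3551 to 4002) and 4677 CPM (4441 to 4923), then monocyte-like cells. Its next classes labelled WT were CD8 T-like cells (1091 CPM) and B-like cells (1005 CPM), whose intervals overlapped, and labelled KO cDC2-like cells (1492 CPM). Macrophage-like cells stood 9th labelled WT and 7th labelled KO. Nonclassical monocyte-like cells, with 44 cells labelled WT and so outside the 13 classes, were at 4618 and 5696 CPM. Melanoma-like cells held 10.4 and 11.6 CPM.

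Ly6d was the most restricted member with many UMIs. It reached 2597 CPM (2415 to 2789) and 2566 CPM (2391 to 2750) in pDC-like cells and 1175 CPM (1045 to 1316) and 1510 CPM (1322 to 1716) in B-like cells, and no other of the 13 classes was above 44.8 CPM in either library. The pDC-like levels overlapped between libraries, with a log2 ratio of -0.02 (-0.16 to 0.13), while in B-like cells the ratio was 0.36 (0.11 to 0.61). Ly6g, which marks neutrophils, was found in granulocyte-like cells at 46.4 CPM (43 UMIs) and 45.0 CPM (15 UMIs), and 42 of the 43 and all 15 of these UMIs lay in cells with a UMI of Retnlg, a neutrophil gene. Granulocyte-like cells themselves numbered 547 labelled WT and 247 labelled KO, and Ly6g over all cells was at 1.60 against 0.381 CPM. Within granulocyte-like cells the log2 ratio of Ly6g was -0.04 (-1.0 to 0.83).

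Ly6e was found in nearly all classes. Of the 13 it was highest in pDC-like cells (2246 and 2169 CPM) and stood between 563 and 1590 CPM in the other classes except mature dendritic cells (137 and 188 CPM) and melanoma-like cells (23.2 CPM labelled WT). Ly6a was highest in CD4 T-like cells (943 CPM) labelled WT, whose interval overlapped that of pDC-like cells (896 CPM), and in pDC-like cells (1251 CPM) labelled KO. Ly6i was highest in monocyte-like cells in both libraries, where its interval overlapped that of granulocyte-like cells (22.7 CPM labelled WT). Macrophage-like cells held most Ly6a UMIs, 58.6% and 54.5% of each library's, and monocyte-like cells held 42.8% and 50.8% of the Plac8 UMIs.

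The ratio of the libraries was not the same in every class. For Ly6c2 the interval of the log2 ratio lay above 0 in 3 of 13 classes, macrophage-like, monocyte-like and cDC1-like cells, and below 0 in 1, NK-like cells, where it reached 0 without the top cell labelled WT. For Plac8 it lay above 0 in 7 classes, the monocyte-like, macrophage-like, granulocyte-like and 4 dendritic cell classes, and below 0 in CD8 T-like and NK-like cells, the latter turning without 1 cell. The shares of granulocyte-like cells (14.6% and 15.4%) and of mature DC-like cells (17.8% and 21.9%) with a Plac8 UMI did not exceed those of melanoma-like cells (24.8% and 21.5%) beyond counting error, so its ratio in these classes is not read as a difference. Plac8 in cDC1-like cells was at 462 CPM (427 to 500) and 741 CPM (691 to 794), and in cDC2-like cells at 942 CPM (890 to 997) and 1492 CPM (1429 to 1559). Ly6a in cDC1-like cells had a larger log2 ratio than in macrophage-like cells, 1.36 (1.04 to 1.69), from 84.7 CPM (117 UMIs) to 218 CPM (234 UMIs).

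**Figure D2:**
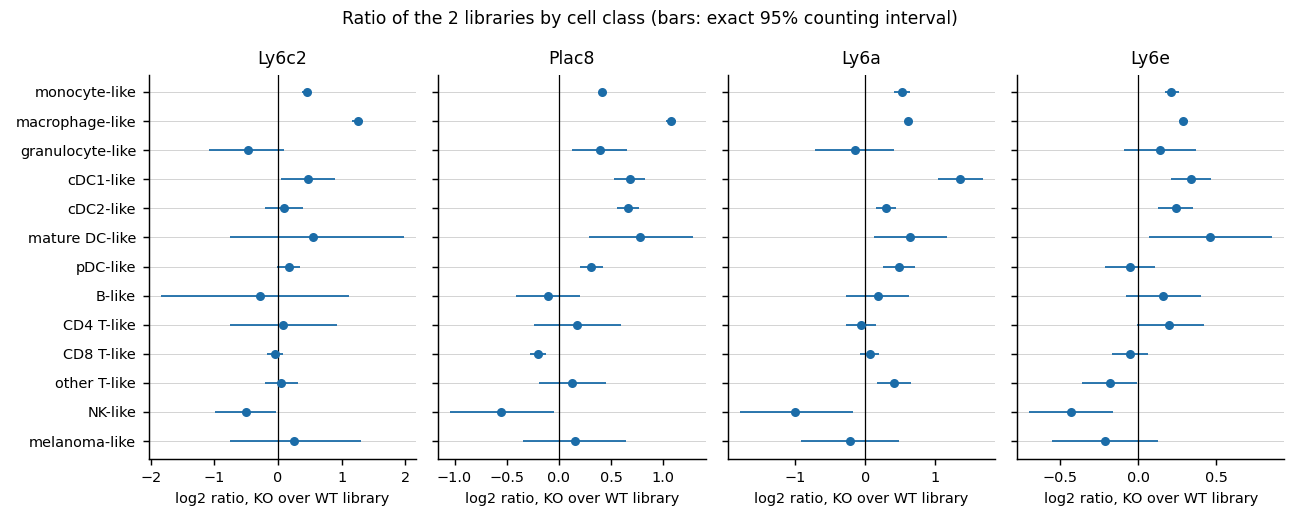
Log2 ratio of the library labelled KO over the library labelled WT for Ly6c2, Plac8, Ly6a and Ly6e in 13 classes, with exact 95% counting intervals and a line at 0. Macrophage-like and monocyte-like points lie to the right of 0 for all 4 genes, and NK-like points to the left, at -0.51, -0.55, -1.0 and -0.43, of which those of Plac8 and Ly6a turned without 1 cell labelled WT.

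The lymphoid classes gave ratios of both signs. Ly6a in the other T-like cells was at 461 and 614 CPM, a log2 ratio of 0.42 (0.17 to 0.66). Ly6c2 in CD8 T-like cells, where it marks antigen-experienced and memory cells, was at 474 CPM (447 to 503) and 459 CPM (431 to 488), and its log2 ratio of -0.05 had an interval from -0.17 to 0.08. It was lower in CD8 T-like cells with a UMI of the cytotoxic gene Gzmb (375 and 405 CPM) than in those without (679 and 682 CPM), in both libraries. Cells with a Gzmb UMI were deeper, with medians of 5978 and 5973 UMIs against 2250 and 1697. Plac8 went the other way, at 1366 and 1103 CPM with a Gzmb UMI against 527 and 317 CPM without. It was lower in CD8 T-like cells labelled KO in both subsets, with log2 ratios of -0.31 (-0.40 to -0.22) and -0.73 (-1.02 to -0.45). NK-like cells (73 and 171) had 359 and 251 CPM of Ly6c2, 347 and 238 CPM of Plac8 and 1099 and 816 CPM of Ly6e. Each rests on 60 to 302 UMIs. Single cells weighed on these values. Without the 1 cell labelled WT that held 25 of the 60 Plac8 UMIs, Plac8 was at 214 against 238 CPM, a log2 ratio of 0.15 (-0.43 to 0.76). Without the top cell labelled WT, Ly6c2 in NK-like cells had a ratio of -0.24 (-0.75 to 0.29), and Ly6a, from 27 and 29 UMIs, turned to 0.68 (-0.48 to 2.02). The shares of NK-like cells with a UMI of Ly6a (9.59% and 9.36%) or Plac8 (24.7% and 20.5%) were no higher than in melanoma-like cells.

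The next question was whether the difference in Ly6c2 and Plac8 lay in cells of 1 stage between monocyte and macrophage. Cells of both classes, and those between them, were ordered by the macrophage minus the monocyte marker score and divided into 6 ranges of equal size over both libraries. Ly6c2 was at 747 and 851 CPM at the monocyte end and at 23.8 and 43.1 CPM at the macrophage end, labelled WT and labelled KO. Plac8 was at 3761 and 4354 CPM in the first range and 85.7 and 124 CPM in the last. Both genes were lower in each following range, in both libraries. In every range the library labelled KO was higher. The log2 ratio of Ly6c2 was lowest in the first range, 0.19 (0.09 to 0.29), and largest in the fourth, 1.15 (1.01 to 1.28), where the level was 163 CPM against 360 CPM. Plac8 also had its lowest and largest ratio there, 0.21 (0.17 to 0.26) and 0.90 (0.83 to 0.96).

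Ly6a had another shape. It was lowest at the monocyte end (102 and 170 CPM), highest in the fifth range labelled WT (472 CPM) and in the fourth labelled KO (762 CPM), and lower again at the macrophage end (335 and 500 CPM). Ly6e was at 1386 and 1582 CPM in the first range and 837 and 907 CPM in the last. The libraries also filled the ranges unequally: 22.4% of such cells labelled WT but 13.1% of those labelled KO lay in the range nearest the macrophage end, and 13.2% and 18.8% in the range nearest the monocyte end. With equal weight to each of 4 ranges of this score inside macrophage-like cells, the log2 ratio was 1.0 for Ly6c2 and 0.81 for Plac8, against 1.25 and 1.07. Within each of these 4 ranges both genes were higher labelled KO, by 0.81 to 1.09 for Ly6c2 and by 0.52 to 0.95 for Plac8 on the log2 scale.

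**Figure D3:**
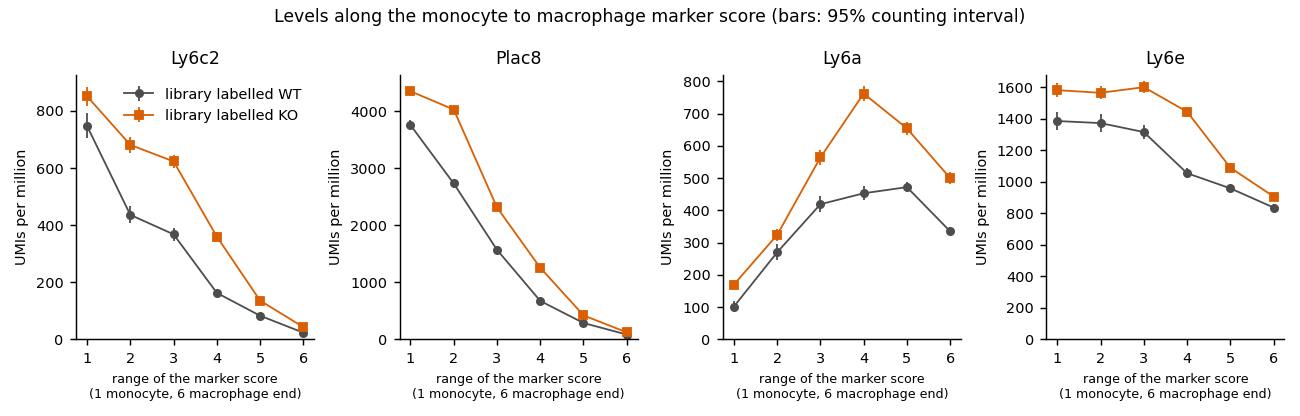
UMIs per 1000000 of Ly6c2, Plac8, Ly6a and Ly6e in 6 equal-sized ranges of the macrophage minus monocyte marker score, from the monocyte end (1) to the macrophage end (6), with 95% counting intervals. Ly6c2 and Plac8 are lower range by range in both libraries, and the line of the library labelled KO lies above that labelled WT throughout, by most on the log2 scale in range 4.

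Other monocyte genes are listed without a contrast, because Ly6c2 and Plac8 were picked for their difference. Among all 2815 genes with at least 50 CPM in macrophage-like cells, 1.49% were 1.5-fold higher and 0.355% lower. Of 16 monocyte genes that served in no gate, 10 reached 50 CPM in macrophage-like cells, 1 was 1.5-fold higher labelled KO (Ms4a4c, log2 ratio 0.82) and 0 lower, with a median log2 ratio of 0.124. Of 19 macrophage genes outside the gates, 18 reached this level, 0 were 1.5-fold higher and 2 lower (Cx3cr1, the fractalkine receptor, at -0.63 and Cbr2 at -0.60), with a median of -0.126. The 7 monocyte markers of the gate summed to 845 and 931 CPM in macrophage-like cells, giving a log2 ratio of 0.14 (0.11 to 0.17). Of these only Chil3 was 1.5-fold higher, from 34.2 to 60.6 CPM. The gate itself keeps these 7 markers low in macrophage-like cells, so their ratio cannot be set against that of Ly6c2 or Plac8. The 8 granulocyte markers summed to 1007 and 333 CPM in macrophage-like cells, all 8 being lower labelled KO and 5 of them 1.5-fold lower. The 6 T markers summed to 139 and 89.7 CPM there, and no granulocyte or T marker was at 0 in either library. The 6 B markers summed to 16.1 and 9.32 CPM and the 5 pDC markers to 13.2 and 8.94 CPM. The 5 endothelial markers went the other way, at 7.84 and 19.5 CPM, with Flt1 at 6.30 and 17.7 CPM. In monocyte-like cells the granulocyte markers summed to 1092 and 320 CPM and the endothelial markers to 32.4 and 59.7 CPM. The part of these markers in the levels of the members was not tested. Of 8 MHC class II genes, 6 reached 50 CPM in macrophage-like cells and of 16 cell cycle genes 7, and 0 of either list passed 1.5-fold. In monocyte-like cells 15 of the 16 monocyte genes reached the level and 0 passed 1.5-fold in either direction, while of 14 macrophage genes 1 was higher and 2 lower.

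Interferon-stimulated genes were also higher in the library labelled KO. Of 24 listed genes, none of them a member, 20 reached 50 CPM in macrophage-like cells, of which 10 were 1.5-fold higher labelled KO and 0 lower, with a median log2 ratio of 0.637. The largest were Isg15 (1.13), a ubiquitin-like modifier, Rsad2 (1.12), an antiviral enzyme, Irf7 (1.11), a transcription factor of the interferon response, and Ifit1 (0.99). In monocyte-like cells 22 reached the level, 18 were 1.5-fold higher and 0 lower, with a median of 0.885 against 0.027 over all genes. The list was known to differ between these libraries when it was chosen. Its summed level was 4073 and 6121 CPM in macrophage-like cells and 5722 and 9441 CPM in monocyte-like cells.

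Each class was therefore divided by the summed level of these genes per cell into low, middle and high groups of equal size over both libraries. Ly6c2, Plac8, Ly6a, Ly6e and Ly6i were higher in the high than in the low group in each library. In macrophage-like cells labelled WT, Ly6c2 was at 36.4, 68.3 and 190 CPM in the low, middle and high group and Plac8 at 132, 286 and 677 CPM. Labelled KO, Ly6c2 was at 24.7, 70.1 and 422 CPM and Plac8 at 135, 378 and 1242 CPM. Ly6a was at 186, 406 and 906 CPM labelled WT and 196, 545 and 1049 CPM labelled KO. Ly6e was at 634, 956 and 1539 CPM and at 587, 1001 and 1722 CPM.

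The difference between libraries in Ly6c2 lay in the high group of macrophage-like cells. There its log2 ratio was 1.15 (1.03 to 1.27), against 0.04 (-0.14 to 0.22) in the middle and -0.56 (-0.87 to -0.25) in the low group, where the library labelled KO had the lower level. For Plac8 the ratios were 0.03 (-0.11 to 0.17), 0.40 (0.32 to 0.48) and 0.88 (0.81 to 0.94) from low to high. Ly6i had 1.72 (1.29 to 2.16) in the high group, from 14.5 to 47.7 CPM, and 0.25 (-0.65 to 1.14) in the low group. For Ly6e the ratios were -0.11, 0.07 and 0.16. Of the macrophage-like cells, 23.2% in the library labelled WT and 41.4% in that labelled KO fell in the high group. Within it the summed interferon-stimulated genes were still at 9533 CPM against 11522 CPM, and the median macrophage minus monocyte score was 0.345 against 0.262, so its cells were not matched on either.

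In monocyte-like cells, by contrast, dividing the cells in this way left smaller differences. Ly6c2 was at 396, 583 and 910 CPM labelled WT and 445, 604 and 1030 CPM labelled KO, with log2 ratios of 0.17 (0.03 to 0.31), 0.05 (-0.07 to 0.17) and 0.18 (0.06 to 0.30). Plac8 had ratios of 0.33 (0.27 to 0.39), 0.16 (0.11 to 0.21) and 0.00 (-0.06 to 0.05), the last from 4911 and 4900 CPM. Ly6a was lower labelled KO in the low group, at 80.0 against 61.0 CPM, and in the middle group, at 240 against 208 CPM, and had 516 and 511 CPM in the high group. With equal weight to the 3 groups the log2 ratios in monocyte-like cells were 0.14 for Ly6c2, 0.12 for Plac8, 0.01 for Ly6e and -0.10 for Ly6a. In macrophage-like cells they were 0.81 for Ly6c2, 0.68 for Plac8, 0.08 for Ly6e and 0.26 for Ly6a. The high group held 17.1% and 40.5% of monocyte-like cells.

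**Figure D4:**
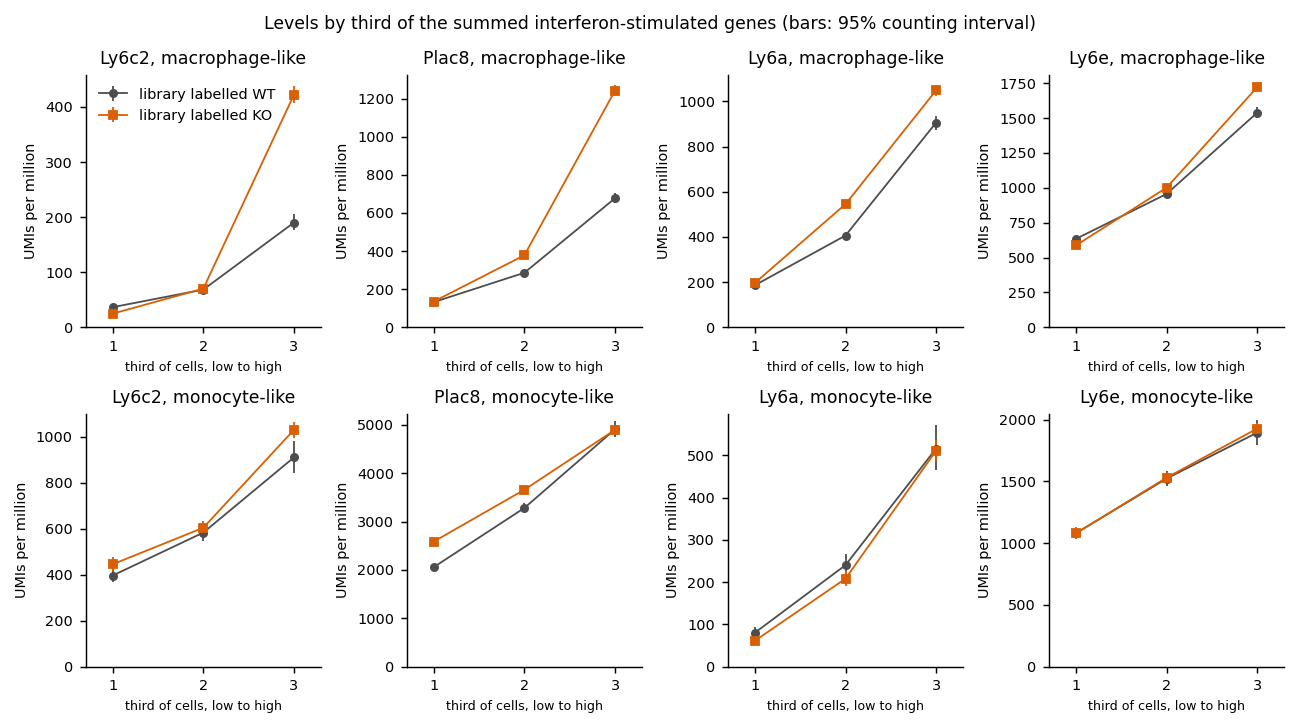
UMIs per 1000000 of Ly6c2, Plac8, Ly6a and Ly6e in macrophage-like (top) and monocyte-like (bottom) cells divided into 3 equal-sized groups by their summed interferon-stimulated genes, with 95% counting intervals. In macrophage-like cells the libraries part for Ly6c2 in the highest group, at 190 against 422 CPM, while in monocyte-like cells Ly6a is lower labelled KO in the low group, at 80.0 against 61.0 CPM.

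The same members were compared in clusters found without them. Leiden clustering with the members left out of the variable genes gave 6 clusters named macrophage-like and 3 named monocyte-like by the same markers. The interval of the log2 ratio lay above 0 for Ly6c2, Plac8, Ly6a and Ly6e in all 6 macrophage-like clusters. The ratios ran from 0.50 to 2.57 for Ly6c2 and from 0.32 to 1.59 for Plac8. For Ly6i the interval lay above 0 in 4 of the 6, with ratios from -1.40 to 2.32, and in 1 of the 3 monocyte-like clusters. The largest macrophage-like cluster held 417 cells labelled WT and 1017 labelled KO, with 142 and 413 CPM of Ly6c2 and 537 and 1284 CPM of Plac8. Clusters and gates matched in part: the share of a cluster's cells that met the gate of the same name ran from 41.7% to 98.2% in the macrophage-like clusters, at 46.4% in the largest, and from 39.6% to 75.7% in the monocyte-like ones. The highest Ly6c2 ratio came from a cluster with only 13 UMIs of the gene labelled WT and 147 labelled KO, in which 41.7% of cells met the macrophage-like gate. The monocyte-like clusters were split. In the cluster of 364 and 706 cells Ly6c2 was at 841 and 761 CPM, giving a log2 ratio of -0.14 (-0.25 to -0.03), and Plac8 at 4947 and 5065 CPM. In the monocyte-like cluster of 589 and 1300 cells Ly6c2 was at 283 and 523 CPM and Plac8 at 1731 and 3125 CPM. In the smallest, of 123 and 445 cells, 39.6% of which met the monocyte-like gate, Ly6c2 was at 885 and 977 CPM and Plac8 at 2604 and 3687 CPM. Ly6a was lower labelled KO in that cluster, at 1584 against 1087 CPM (log2 ratio -0.54, -0.64 to -0.45), and higher in the other two, at 331 and 461 CPM and at 32.4 and 64.5 CPM.

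**Figure D5:**
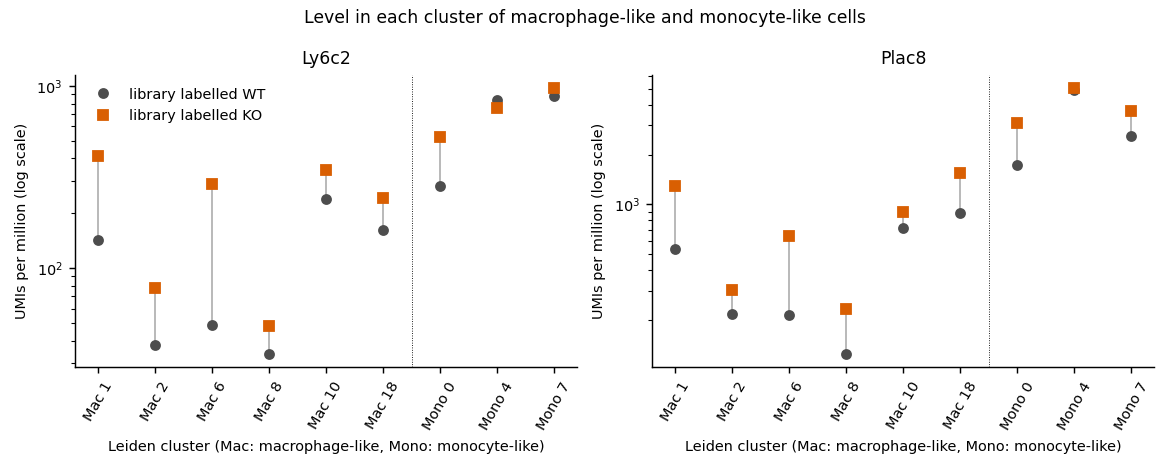
UMIs per 1000000 (log axis) of Ly6c2 and Plac8 in each of 6 macrophage-like (Mac) and 3 monocyte-like (Mono) Leiden clusters, with no error bars, joined by a line between the library labelled WT (grey circle) and labelled KO (orange square). The square is above the circle in all 6 macrophage-like clusters for both genes, and below it for Ly6c2 in monocyte-like cluster 4, at 761 against 841 CPM.

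To compare shares of cells at 1 depth, each cell was thinned to 1000 UMIs, which left out 97 and 138 shallower macrophage-like cells. A UMI of Ly6c2 was then found in 6.06% (4.93 to 7.37) of the remaining cells labelled WT and, for the library labelled KO, in 14.3% (12.8 to 15.9). Plac8 was found in 17.7% (15.9 to 19.7) and 31.4% (29.4 to 33.6), and Ly6a in 25.2% (23.1 to 27.4) and 37.0% (34.8 to 39.1). Before thinning the shares were 23.9% and 33.1% for Ly6c2, 38.7% and 51.3% for Plac8, and 61.2% and 66.2% for Ly6a, at medians of 9882 and 6911 UMIs. Melanoma-like cells, taken here to lack these genes, had a UMI of Ly6c2 in 8.51% and 8.33% before thinning, of Plac8 in 24.8% and 21.5% and of Ly6a in 13.5% and 12.7%, at medians of 45590 and 34551 UMIs. Their shares after thinning are no measure of background, because thinning removes far more of the UMIs of so deep a cell. The unthinned macrophage-like shares of all 3 genes were above those of melanoma-like cells in both libraries. In monocyte-like cells Ly6c2 was found in 35.0% (31.8 to 38.4) and 43.8% (41.5 to 46.0) and Plac8 in 75.6% (72.6 to 78.5) and 85.7% (84.1 to 87.3).

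Ly6c2 and Plac8 tended to be found in the same macrophage-like cells. At 1000 UMIs, Plac8 was found in 53.2% (42.6 to 63.6) of the 94 cells labelled WT with a Ly6c2 UMI and in 15.4% (13.6 to 17.4) of the 1457 without. Labelled KO the shares were 65.7% (59.8 to 71.3) of 280 cells and 25.7% (23.6 to 27.9) of 1676 cells. At this depth Plac8 was also more frequent labelled KO among cells without a Ly6c2 UMI. Before thinning, 394 and 693 macrophage-like cells held a Ly6c2 UMI, so the cells without it here include cells that held it. The split therefore cannot tell Plac8 apart from Ly6c2. Ly6a was found in 46.8% and 55.4% of cells with a Ly6c2 UMI and in 23.8% and 33.9% of those without. In monocyte-like cells Ly6a did not separate in this way, with 11.1% and 16.0% against 11.6% and 13.3%.

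Genes with a like class profile were sought by Pearson's r of log2(CPM + 10) over the 13 classes, which share libraries and depth, so r is a description. For Ly6c2 the closest were Rps6ka1 (r = 0.895), Gak, Lypla2, Notch1 and Fyb (r = 0.818), each highest in pDC-like cells. For Plac8 they were Ptpn6 (r = 0.893), Rap1a, Ly6e, Cyth4 and Cybb (r = 0.850). Ly6a was closest to Trim8 (r = 0.900), H2-M3 and Ly6e (r = 0.846), and Ly6e to Fermt3 (r = 0.941), Tgfb1 and Laptm5. Ly6d had the closest match, the immunoglobulin light chain gene Iglc3 (r = 0.992), followed by Cacna1e and Xkrx. Among members, Ly6e and Plac8 were most alike (r = 0.863), and Ly6c2 and Plac8 had r = 0.803.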

How the data were processed

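Live (7-AAD negative) CD45+ cells were sorted from B16 tumours and profiled with the Chromium 3' v3 chemistry. The authors made the deposited UMI counts per gene and barcode with Cell Ranger, version 4.0.0 per the file headers, against mm10. Barcodes with at least 200 genes and at most 10% mitochondrial UMIs were kept. Automatic Scrublet thresholds marked 1 barcode in each library, which is too few to have worked, so the 256 and 532 barcodes with the highest doublet scores were removed instead, at an assumed 0.8% per 1000 cells. Cells were assigned to the marker list on which their mean scaled level was highest, at a score of at least 0.2 and a margin of 0.05 over the next. Members were not used as markers. For each class, the UMIs of a gene in 1 library were added up and expressed per 1000000 UMIs of the class (CPM).

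The named genes were the 8 members in each class of at least 50 cells in each library, the 5 most alike class profiles for Ly6c2 and Plac8 and 3 for other members, and up to 4 genes per list past 1.5-fold in macrophage-like cells. The members and lists were chosen with earlier results of these data known. Counts over all genes were restricted to those reaching 50 CPM in at least 1 library, with a pseudocount of 1 CPM, and left out mitochondrial, ribosomal protein and haemoglobin genes. With 1 library per group, no test or p-value was computed. Intervals and limits from 0 counts (3 counts) cover counting error only. The scripts were tested on simulated data. Positions came from GENCODE M21, where 31011 of 31053 gene identifiers matched, and promoter windows from RefSeq. Python 3.11.15, numpy 2.4.6, scipy 1.17.1, pandas 2.3.3, scanpy 1.11.5, leidenalg 0.10.2 and biopython 1.88 were used.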

Additional observations from a re-analysis of the deposited data

Results flagged for a closer look

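In 8 instances a member's ratio between the libraries had the opposite sign to that in macrophage-like cells, with both counting intervals clear of 0. The difference between the classes itself was not tested in any of them, since each genotype is 1 library. NK-like cells gave 4 of these: the log2 ratio, labelled KO over labelled WT, was -1.0 for Ly6a against 0.61 in macrophage-like cells, -0.51 for Ly6c2 against 1.25, -0.43 for Ly6e against 0.29 and -0.55 for Plac8 against 1.07. Those of Ly6a and Plac8 rest largely on 1 cell labelled WT each. Without the top cell, which held 19 of 27 UMIs of Ly6a and 25 of 60 UMIs of Plac8, the ratios were 0.68 and 0.15. Those of Ly6c2 and Ly6e were -0.24 (-0.75 to 0.29) and -0.29 (-0.57 to -0.01). CD8 T-like cells gave -0.20 for Plac8, and -1.31 for Ly6i from 21 and 8 UMIs, 16 of which lay in 1 cell labelled WT, against 1.47 in macrophage-like cells. Without that cell the Ly6i ratio was 0.75 (-1.05 to 2.71), while that of Plac8 was -0.15 (-0.23 to -0.06) without its top cell. The other T-like cells gave -0.18 for Ly6e, and -0.12 (-0.30 to 0.06) without the top cell labelled WT. B-like cells gave 0.36 for Ly6d, where macrophage-like cells had -0.86 from 91 UMIs in 17 cells and 47 UMIs in 10 cells.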

How the results depend on the processing

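No paired analysis was possible because the labels give no replicate numbers and each genotype is 1 library. For the same reason no library could be left out, and the values have no check between mice. Ly6c2 and Plac8 stayed higher labelled KO in both classes under every alternative that was run. In macrophage-like cells the log2 ratio of Ly6c2, 1.25 as reported, was 1.38 with equal weight per cell, 1.52 with cells thinned to 1000 UMIs and 1.0 with equal weight per range of the marker score. That of Plac8, 1.07, was 1.0 in Leiden clusters, 0.96 with the stricter margin of 0.15 and 0.81 with equal weight per range. Equal weight per group of interferon-stimulated genes, an alternative chosen after seeing the data, gave 0.81 and 0.68. In monocyte-like cells that alternative gave 0.14 for Ly6c2, 0.45 as reported. Plac8 there, 0.41 as reported, was 0.36 with equal weight per cell and when thinned, 0.48 in Leiden clusters, 0.35 with the stricter margin, 0.37 with equal weight per range (chosen after seeing the data) and 0.12 by group of interferon-stimulated genes. Directions turned for Ly6a in monocyte-like cells by those groups (-0.10), and for the few UMIs of Ly6c1, at -0.69 by those groups in monocyte-like cells and -0.60 with equal weight per cell in macrophage-like cells. The cause was not tested. Leaving out the top cell, chosen after seeing the data, turned Ly6a and Plac8 in NK-like cells and Ly6i in CD8 T-like cells, to 0.68, 0.15 and 0.75 without that labelled WT and 0.30, 0.03 and 0.08 without that of each library. The number of genes past 1.5-fold followed the filter: in macrophage-like cells 42 higher and 10 lower at 50 CPM, 94 and 48 at 10 CPM, and 220 and 171 with no filter; in monocyte-like cells 95 and 12, 189 and 105, and 666 and 667. Of the other values, 95 moved by less than their counting interval and 15 by more.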

Other observations

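The cells that met no class held the members too. Their leading genes included Cxcl2, Hilpda, Ptgs2 and Thbs1, and Ly6c2 was at 254 CPM (237 to 271) in the 746 cells labelled WT and 468 CPM (449 to 488) in the 1250 labelled KO. Plac8 in them was at 1214 and 1908 CPM, Ly6a at 426 and 660 CPM, Ly6e at 1041 and 1443 CPM and Ly6i at 33.1 and 58.6 CPM. All 5 were thus higher labelled KO in these cells as well.

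Classes with fewer than 50 cells labelled WT gave values that rest on few cells. Plasma-like cells, 20 and 59 in number, held 14 and 245 UMIs of Plac8 and 58 and 313 UMIs of Ly6c2, of which 135 lay in 1 cell. Their Ly6d was at 362 CPM (69 UMIs) and 519 CPM (256 UMIs). Nonclassical monocyte-like cells had 198 CPM of Ly6i from 21 UMIs labelled WT and 94.0 CPM from 24 UMIs labelled KO. Fibroblast-like cells were at 2324 and 2668 CPM of Ly6a, above each of the 13 larger classes, in 14 and 18 cells.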
